A study of Mus musculus with 18 samples.

Results

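The genes described here encode protein components of the cytosolic ribosome or, for 8 of 85, are related genes (relatives, and Rps19bp1, matched by name). They were taken from 2 deposited tables of raw counts per gene as every symbol made of Rpl or Rps and a digit, with Rplp0, Rplp1, Rplp2 and Rpsa, and without the S6 kinases and rows named as pseudogenes. A total above 100 counts in the table was also asked for. This gave 85 genes of 23052 symbols in the endotoxin-tolerant table and 83 of 23052 in the stimulation table. Of 87 symbols that fitted the name, Rpl10l (0 and 1 counts in all) and Rpl3l (21 and 12) missed the total in both tables. Rpl24 (83 counts) and Rpl39l (84) missed it in the stimulation table only. Just inside stood Rpl24 in the tolerant table, with 143 counts, and Rps27rt in the stimulation table, with 236.

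All libraries were made from bone marrow-derived macrophages of C57BL6/J wild type mice, matured over 7 days in a mix of 80% DMEM (with FBS) and 20% medium conditioned by L929 cells. The endotoxin-tolerant set had 3 groups of 4 libraries: α-ketoglutarate (AKG) without glutamine, without glutamine, and with glutamine. The stimulation set had 3 groups of 2 libraries: LPS for 6 h, IL-4 for 6 h, and CTRL. The labels do not state how tolerance was brought about, the AKG dose or the time without glutamine, and nothing says that replicates came from separate animals or cultures. The p-values below therefore measure only the spread between these samples, which may be technical. Each tolerant library held 28302158 to 37834680 counts, and each stimulation library 34227368 to 39760356.

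The ribosome has a small subunit, which reads the mRNA, and a large subunit, which joins the amino acids. Its proteins are needed in near-equal amounts, are among the most abundant mRNAs of growing cells, and are spread over the genome with many processed pseudogenes. Most of these mRNAs start with a C followed by a run of pyrimidines, the terminal oligopyrimidine (TOP) start, through which mTORC1 and the RNA-binding protein Larp1 set how well they are translated. That control acts mainly on translation, and only mRNA levels were measured here. Macrophages given LPS or IL-4 remodel their protein synthesis, and glutamine and its product AKG feed the mTORC1 and mitochondrial pathways.

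Start sites are shown for 8 of the 10 members called in a stimulation comparison, for Rps27 beside its relative Rps27l, and for Rps6 and Rps15a as members with the classical start. None is shown for Rpl3 and Rps4l. The sequences are 30 bases long, 10 before the annotated start and 20 from it on, from RefSeq on GRCm38.p6. Capitals mark the C nearest to the annotated start that is followed by at least 4 pyrimidines, where one lies within 10 bases of the start, together with those pyrimidines. Pyrimidines before that C and any further run are left in lower case. A stretch without capitals holds no such C within 10 bases of the start.
Rps6: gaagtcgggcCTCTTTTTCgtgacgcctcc
Rps15a: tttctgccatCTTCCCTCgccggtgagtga
Rps18: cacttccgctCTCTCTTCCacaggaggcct
Rps9: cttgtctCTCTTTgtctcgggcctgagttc
Rpl12: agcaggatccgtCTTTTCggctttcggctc
Rps27: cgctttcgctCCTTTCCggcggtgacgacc
Rps27l: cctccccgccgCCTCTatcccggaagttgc
Rpl10: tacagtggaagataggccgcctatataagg
Rpl27: ctgttcctgtctgctgctcgtgctgctaat
Rpl36al: ccgtcgctcaggttcagttccgacttccgc
Rpl7l1: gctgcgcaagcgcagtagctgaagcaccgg

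On the plus strand lie Rps9 (chr7:3704031-3704060), Rpl12 (chr2:32961702-32961731), Rps27l (chr9:66946076-66946105), Rpl10 (chrX:74270806-74270835) and Rpl27 (chr11:101442235-101442264). On the minus strand lie Rps6 (chr4:86857348-86857377), Rps15a (chr7:118116128-118116157), Rps18 (chr17:33955646-33955675), Rps27 (chr3:90213629-90213658), Rpl36al (chr12:69184048-69184077) and Rpl7l1 (chr17:46782637-46782666). In Rps6, Rps15a, Rps18 and Rps27 the marked C is the annotated start base itself, and in each at least 1 further pyrimidine stands directly before it. In Rps27l, the close relative of Rps27, the marked stretch is 5 bases long and lies 1 base after the start, and a further, unmarked run opens the printed sequence.

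A promoter entry was found for 64 of the 85 genes. A C at an annotated start base followed by at least 4 pyrimidines was present in 14 of these 64 genes (21.9%), against 813 of 27025 genes with an entry (3.01%). Such a C within 10 bases either side was present in 38 of 64 (59.4%), against 34.4% of all. In the 300-base windows, from 250 before to 50 after the start and on both strands, CCGGAAGT (the core of an ETS family site) was found for 12 of 64 members (18.8%), against 4.31% of all genes. AAGATGGC (a YY1 site) was found for 6 (9.38%), against 3.19%. The TATA box, searched as TATAAA, was found for 7 (10.9%), against 15.7%. These are matches of letters in a window, counted over any start listed for a gene, and the motifs may overlap.

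Levels of the members per length ran over a wide range. With normalised CPM (counts relative to TMM-adjusted library totals) divided by coding length, the highest in the tolerant set were Rpl41 at 1529 CPM per kb, the shortest ribosomal protein, and Rps29 at 1510 CPM per kb, a small-subunit protein. Coding length was that of the longest annotated coding sequence, taken from principal transcripts where a gene had one. A shorter form would raise the level per kb. For Rps4l the transcript length was used. The median coding length of members was 453 bases, from 138 (Rpl41) to 1257. Rps24 of the small subunit stood at 1218 CPM per kb and Rplp1 of the P stalk, the arm that recruits the elongation factors, at 1088 CPM per kb. At the other end stood Rpl24 at 0.741 CPM per kb, Rps27rt at 3.89, Rps4l at 7.20, Rpl23a at 11.0 and Rpl39l at 12.8 CPM per kb. Rpl24 and Rpl23a encode core proteins of the large subunit, and the other 3 are relatives of core genes.

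**Figure D1:**
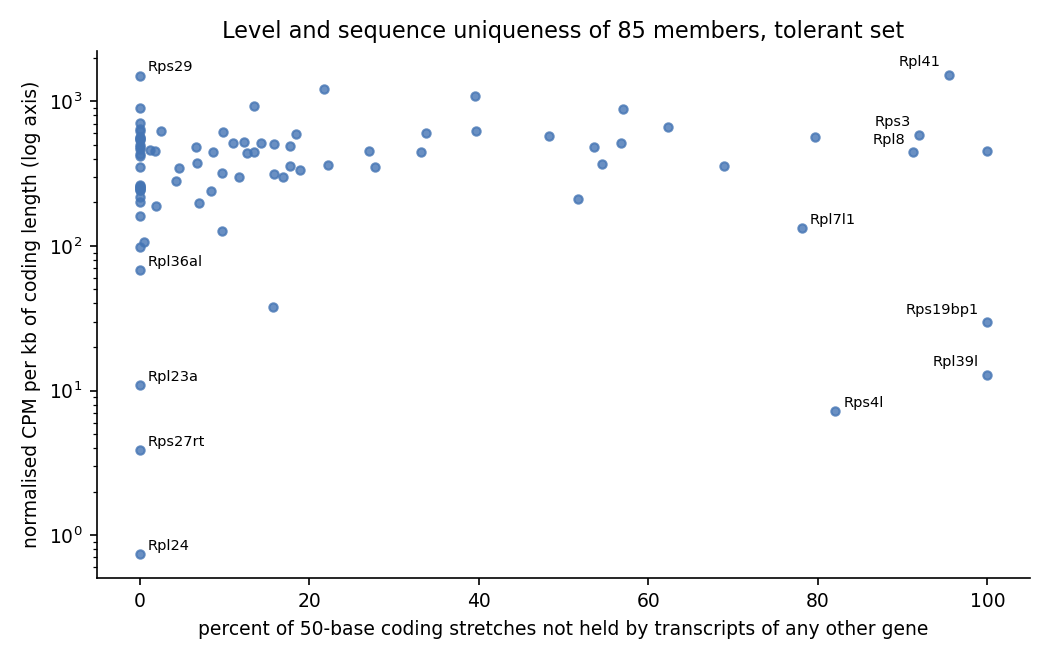
Level of the 85 members in the tolerant set (normalised CPM per kb of coding length, log axis) against the percent of their 50-base coding stretches found in transcripts of no other gene. Each point is 1 gene, and low levels occur at both ends of the horizontal axis: Rpl24 at 0.741 CPM per kb with no unique stretch and Rpl39l at 12.8 CPM per kb with all stretches unique.

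Reads from these genes are hard to place, and the sources used here do not state how shared reads were counted. In GENCODE vM21 (GRCm38), 35 members lie over a further gene of the same strand and 25 over one of the opposite strand. Of the 50-base stretches of their coding sequence, a median of 9.71% per member occurs in the transcripts of no other gene. That share was under 50% for 69 members and over 90% for 6, among them Rpl41, Rps3, Rpl8, Rps19bp1 and Rpl39l. Rpl24 (chromosome 16, positions 55966275 to 55971435, plus strand) shares 81.8% of its stretches with the overlapping gene Gm28037, and Rpl23a has none of its own. Across the 85 members Spearman's rho of level per kb and unique share was 0.165, a description over genes that share libraries, and the part of shared sequence in any single level was not tested. Levels of members with few unique stretches are therefore uncertain. Each is compared below with itself, and the part of shared reads in its fold changes was not tested either.

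In sum the members held 1.44 to 2.16% of all counts in a library. Their share was 1.77, 1.78, 1.63 and 1.74% in the 4 AKG libraries, 1.84, 1.99, 1.91 and 1.67% in the 4 libraries without glutamine, and 1.64, 1.73, 1.84 and 1.81% in the 4 with glutamine. The 3 tolerant groups overlapped. The share was 1.53 and 1.44% with LPS, 2.10 and 2.16% with IL-4, and 2.15 and 1.92% in CTRL, so both LPS libraries lay below the other 4. After TMM scaling, whose factors were 0.791 and 0.822 with LPS and 1.12 and 1.09 in CTRL, the summed CPM was 19329 and 17561 with LPS and 19317 and 17607 in CTRL. The LPS and CTRL ranges then nearly coincided. Whether ribosomal protein mRNA was lower with LPS thus depended on the scaling. In such bulk libraries fewer cells of a type and less RNA per cell cannot be told apart.

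**Figure D2:**
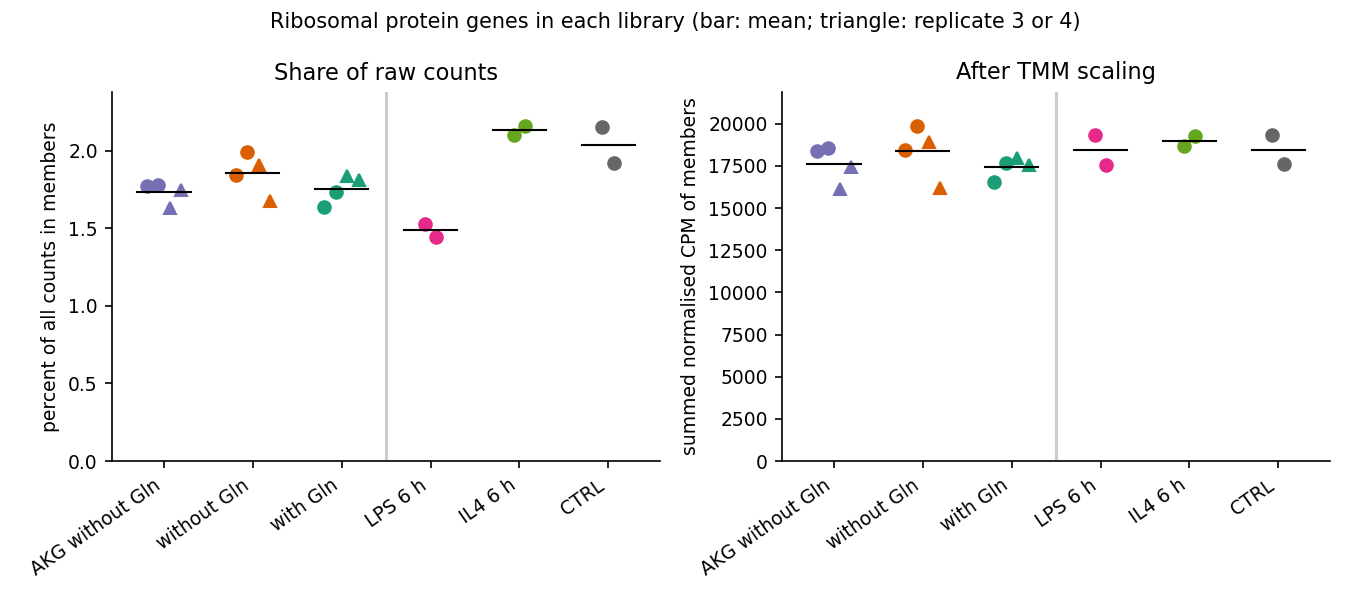
Percent of all counts in the members (left) and their summed CPM after TMM scaling (right) in each of 18 libraries, with bars for group means and triangles for tolerant replicates 3 and 4. The LPS libraries stand lowest on the left, at 1.53 and 1.44%. On the right 1 of them, at 19329 CPM, lies just above the CTRL range and the other, at 17561 CPM, just below it.

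Macrophage markers were high in all libraries, with the 8 listed genes summing to 26680 to 46809 CPM, and erythroid markers summed to at most 0.12 CPM. In the tolerant set replicates 1 and 2 differed from replicates 3 and 4 in each group. Between these replicates 14 of 85 members were lower and 4 higher in all 6 libraries of replicates 3 and 4 than in all 6 of replicates 1 and 2, against 12.3 and 14% of all genes tested. Rps19, a small-subunit protein mutated in human Diamond-Blackfan anaemia, ran from 108 to 135 CPM in replicates 3 and 4 and from 146 to 187 CPM in replicates 1 and 2. Rpl39l, a relative of Rpl39 known from mouse testis, ran from 2.39 to 4.33 CPM in replicates 3 and 4 and from 0.368 to 0.763 CPM in replicates 1 and 2.

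Withdrawal of glutamine from tolerant macrophages left the ribosomal protein mRNAs close to their level with glutamine. In edgeR's quasi-likelihood test with Benjamini-Hochberg adjustment, 0 of 85 members passed an adjusted p of 0.05 in either direction, against 4.7% of the 12492 genes tested (2.3% higher and 2.4% lower). At an unadjusted p under 0.05 stood 6 members and 2234 genes in all. The median log2 fold change was 0.08 for members and -0.01 for all genes tested, and 73 members lay above 0. Leaving out 1 library moved this median to 0.020 without replicate 2 of the group without glutamine, to 0.16 without its replicate 4 and to 0.034 without replicate 1 of the group with glutamine, and 50 to 80 members then lay above 0. In the fit to all libraries it was 0.09 for the 31 genes of the small subunit, 0.07 for the 43 of the large subunit and 0.04 for the 3 of the P stalk. For 83 members (97.6%) the change was within 0.25 on the log2 scale, against 66.9% of all genes tested. At a mean log2 CPM of 5 or more these were 77 of 77 members and 78.6% of all.

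The smallest p belonged to Rps15a, a small-subunit protein. It had 204, 218, 225 and 213 CPM without glutamine and 171, 191, 190 and 192 CPM with glutamine. All 4 libraries without glutamine lay above the 4 with it (log2 fold change 0.21, SE 0.06, adjusted p = 0.084 by edgeR). Rpl23, a large-subunit protein known to bind MDM2 in human cells, had 379, 408, 452 and 441 CPM without glutamine and 312, 334, 393 and 382 CPM with glutamine. Its groups overlapped, with both high replicates 3 and 4 (log2 fold change 0.24, SE 0.10, adjusted p = 0.20). Rpl5, which joins the 5S rRNA, had 246, 249, 245 and 236 CPM without glutamine and 211, 213, 230 and 229 CPM with it, with no overlap (log2 fold change 0.14, SE 0.06, adjusted p = 0.22). Groups did not overlap for 2 members, Rps15a and Rpl5, both higher, against 6.58% of all genes higher and 5.78% lower. DESeq2 called 2 members higher, Rpl5 and Rps15a (adjusted p = 0.034 and 0.0025), against 4.52% of all genes, where edgeR called none of the members.

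With the replicate number as a block 4 members rose and 1 fell, against 21.7% of all genes tested (8.68% higher and 13% lower). Those that rose were Rpl23 (log2 fold change 0.25, adjusted p = 0.0067), Rps15a (0.21, adjusted p = 0.025), Rpl4 (0.23, adjusted p = 0.028) and Rps19bp1 (0.28, adjusted p = 0.039). Rps19bp1 encodes a nucleolar partner of Rps19 and is no ribosome subunit. Rpl39l fell in this fit. It had 0.37, 0.42, 2.74 and 2.39 CPM without glutamine and 0.75, 0.76, 4.23 and 4.33 CPM with glutamine, so each library without glutamine lay below the same-numbered one with it.

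Stromal fibroblast markers fell in the same comparison, 6 of the 8 tested by edgeR and 8 with the block, with summed levels of 50.03 to 213 CPM without glutamine and 423 to 2211 CPM with glutamine. Proliferation markers fell for 5 of 8, and for 6 with the block, at 193 to 231 CPM without glutamine and 199 to 345 CPM with it. No listed stromal marker was at 0 in any group. Their part in the member values was not tested.

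The median offset of the members differed between replicates 1 and 2 and replicates 3 and 4, while few single members were called. In the interaction fit the median member log2 fold change of the group without glutamine over that with glutamine was 0.16 in replicates 1 and 2 and -0.02 in replicates 3 and 4, and it was 0.0030 where replicates 3 and 4 were fitted alone. For all genes tested the medians in the interaction fit were 0.0040 and -0.026. In sum over the members only replicate 4 was lower without glutamine. The summed CPM of the members was 18470 without glutamine and 16525 with it in replicate 1, and 19897 and 17687 in replicate 2. It was 18924 without glutamine and 17992 with it in replicate 3, but 16187 without glutamine and 17544 with it in replicate 4. The difference of log2 fold changes was below 0 for 78 of 85 members, which share these libraries and are not separate observations. This difference was called for 2 members by edgeR's interaction test, against a similar share of all genes tested, 2.45%. Rps26, a protein at the mRNA exit of the small subunit, had 170 and 177 CPM without glutamine and 143 and 142 CPM with it in replicates 1 and 2. In replicates 3 and 4 it had 157 and 148 CPM without glutamine and 173 and 182 CPM with it. The direction thus turned round (difference of log2 fold changes -0.50, SE 0.09, adjusted p = 0.023). Rpl41 had 236 and 256 CPM without glutamine and 207 and 216 CPM with it in replicates 1 and 2. In replicates 3 and 4 it had 182 and 161 CPM without glutamine and 223 and 228 CPM with it, so that its direction turned round too (difference -0.61, SE 0.11, adjusted p = 0.026).

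Fitted alone, replicates 1 and 2 gave 29 of 84 members higher and 0 lower without glutamine, against 13% of all genes called higher and 15.6% called lower. Among the 29 were Rpl35 (log2 fold change 0.39, SE 0.05), Rps6, the substrate of the S6 kinases (0.25, SE 0.05), and Rpl5 (0.22, SE 0.05). In replicates 3 and 4 alone 0 members were higher and 1, Rpl39l, was lower (log2 fold change -0.71, SE 0.17), against 4.41% and 8.79% of all genes. Each of these fits had 2 libraries a group, which all members share, so the calls are not separate observations. The grouping of replicates was seen in the data and is not in the labels.

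**Figure D3:**
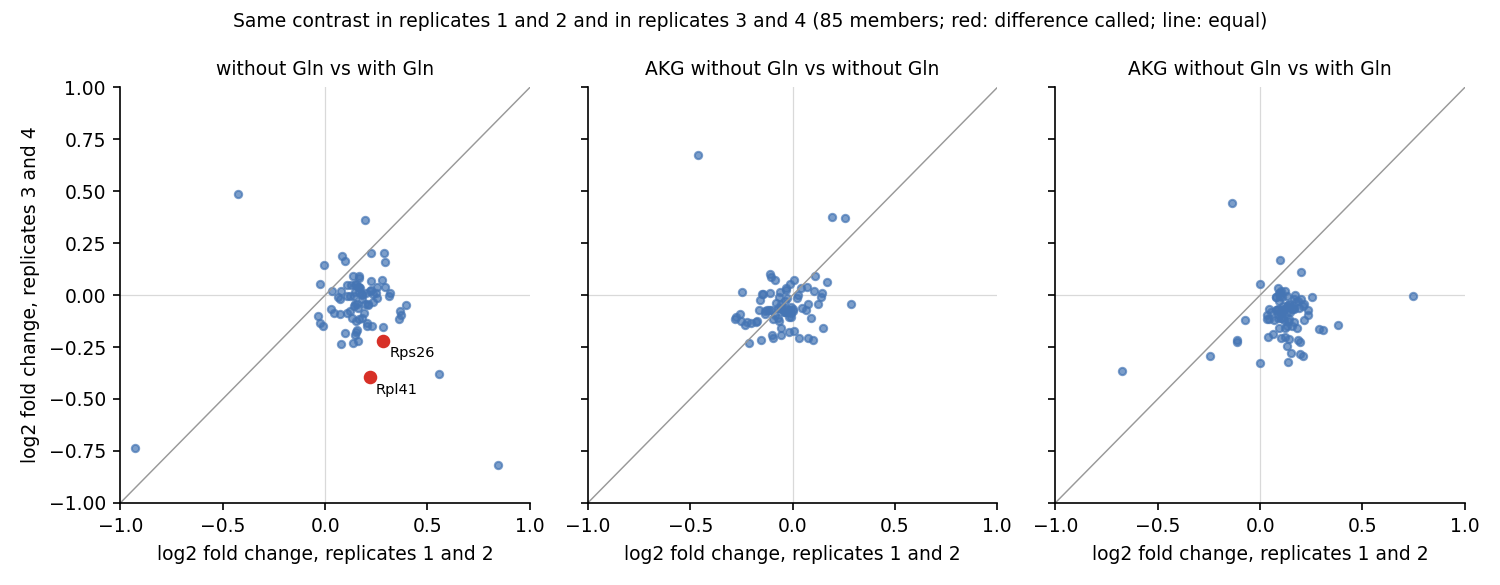
Log2 fold change of each of 85 members in replicates 1 and 2 (horizontal) and in replicates 3 and 4 (vertical) for the 3 tolerant comparisons, with the line of equal values. In the comparison without against with glutamine 78 points lie below the line, and Rps26 and Rpl41, in red, are those whose difference was called.

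AKG added in the absence of glutamine left the members near their level without it. By edgeR 0 of 85 passed in either direction, against 1.49% of all genes tested, and DESeq2 called 0, against 5.46% of all genes. At an unadjusted p under 0.05 stood 3 members and 1619 genes in all. The median log2 fold change was -0.05 for members and 0.01 for all genes tested, and 17 members lay above 0. It moved to -0.13 without replicate 4 of the group without glutamine, to -0.0075 without replicate 2 of that group, to -0.094 without AKG replicate 2 and to 0.0013 without AKG replicate 3, where 43 members lay above 0. Rps15a had 198, 198, 184 and 197 CPM with AKG and 204, 218, 225 and 213 CPM without glutamine, again with no overlap, the 1 such member, against 5.08% of all genes lower (log2 fold change -0.15, SE 0.06, adjusted p = 0.33). Rps2, also of the small subunit, had 244, 255, 261 and 251 CPM with AKG and 299.6, 306, 302 and 251 CPM without glutamine (log2 fold change -0.20, SE 0.08, adjusted p = 0.33). The replicate block called 1 member lower, against 15.3% of all genes. It was Rpl4, with 647, 632, 691 and 721 CPM with AKG and 711, 774, 875 and 783 CPM without glutamine (log2 fold change -0.22, adjusted p = 0.040). The interaction test called 0 members, against 0.056% of all genes. In replicates 1 and 2 alone 8 members were lower, among them Rps2 and Rpl4, against 10.9% of all genes, and in replicates 3 and 4 alone 0 were called, against 5.55%. Stromal markers summed to 112 to 413 CPM with AKG and 50.03 to 213 CPM without glutamine, 0 of 8 called by edgeR and 7 higher with the block, and their part was not tested.

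Against cells with glutamine, those with AKG in its place showed 0 of 85 members called, where 0% of all genes passed. At an unadjusted p under 0.05 stood 1 member and 916 genes in all, and DESeq2 called 0 members and 232 genes (1.86%). This comparison and the previous 2 share libraries. The median log2 fold change was 0.03 for members, against -0.002 for all genes. With 1 library left out it ran from -0.0087 without AKG replicate 2 to 0.088 without AKG replicate 3, and it was below 0 also without AKG replicate 1 (-0.0022) and under library totals alone (-0.0093). Rpl3, a protein of the peptidyl transferase centre, had the smallest p. It had 319, 308, 276 and 327 CPM with AKG and 363, 379, 373 and 365 CPM with glutamine, and all 4 AKG libraries lay below (log2 fold change -0.27, SE 0.09, adjusted p = 0.39). Rps2 also lay lower in all 4 AKG libraries, at 244 to 261 CPM against 268 to 320 CPM with glutamine (adjusted p = 0.74). Groups did not overlap for these 2 members, both lower, against 3.09% of all genes tested. With the block 0 members were called, against 7.01% of all genes. By the difference between replicates 0 members were called, against 1.61% of all genes, with medians of 0.12 in replicates 1 and 2 and -0.08 in replicates 3 and 4. Replicates 1 and 2 alone gave 2 members higher, Rpl35 and Rps24, and 1 lower, Rpl3, against 5.07 and 6.53% of all genes. Stromal markers summed to 112 to 413 CPM with AKG and 423 to 2211 CPM with glutamine, 0 of 8 called by edgeR and 8 lower with the block, and their part was not tested.

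**Figure D4:**
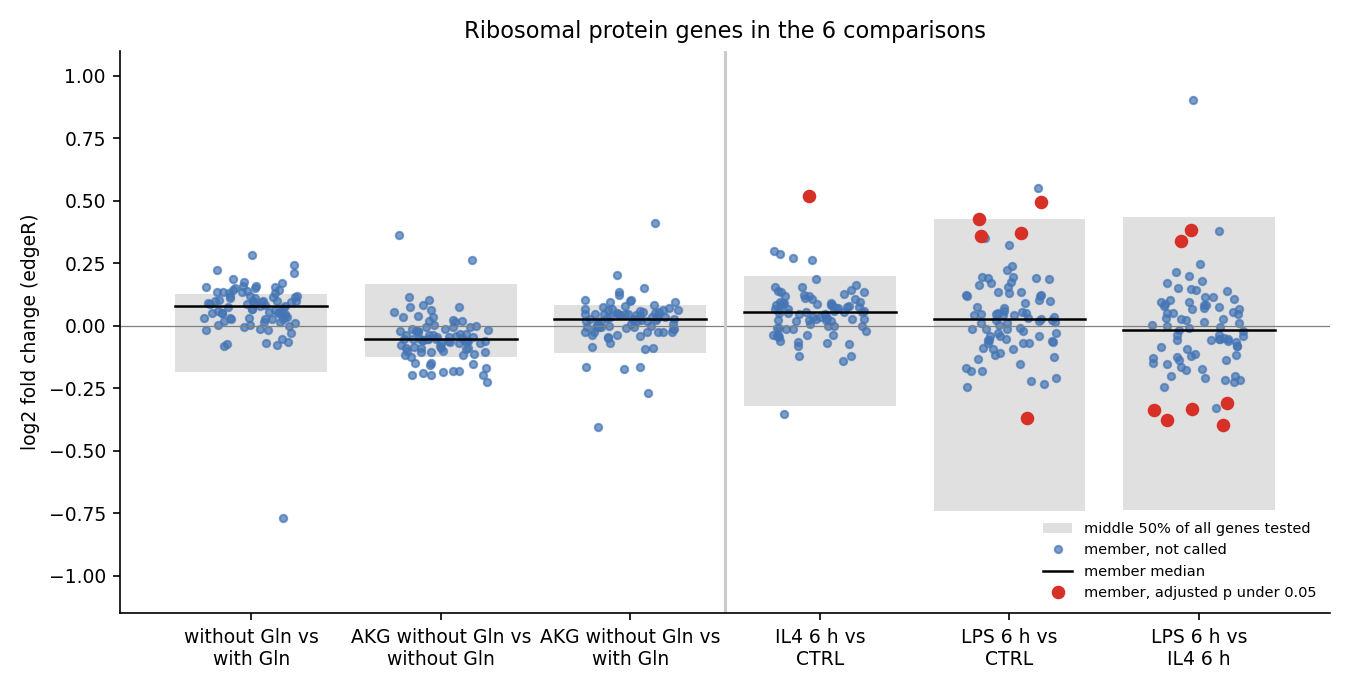
Log2 fold change of each member in the 6 comparisons (edgeR), with the member median as a bar, called members in red and the middle 50% of all genes tested in grey. The members sit within a narrower band than all genes, most visibly in both LPS comparisons, where the grey band runs from -0.74 to 0.43 and from -0.74 to 0.44.

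In the stimulation set the ribosomal protein mRNAs moved little under TMM scaling while many other genes moved. For LPS this depended on the scaling, as given below. IL-4 for 6 h changed 1 of 83 members, against 20.1% of the 12506 genes tested by edgeR. The median log2 fold change was 0.05 for members and -0.04 for all genes. Changes were within 0.25 for 77 members (92.8%), against 48.8% of all genes. Both IL-4 libraries lay above both CTRL libraries for 23 members, against 26.5% of all genes, and below for 0 members, against 31.8% of all genes.

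The member that rose was Rps27l, a relative of Rps27 that is a p53 target in human cells. It had 60.6 and 66.1 CPM with IL-4 and 47.0 and 41.4 CPM in CTRL, with no overlap (log2 fold change 0.52, SE 0.11, adjusted p = 0.024 by edgeR). Its partner Rps27 had 181 and 188 CPM with IL-4 and 200 and 171 CPM in CTRL, and was not called. Rps27l holds 51.7% unique stretches and Rps27 0%. The Rps27l call was lost in 5 of the 6 fits that each left out a library, where its log2 fold change ran from 0.43 to 0.70 over all 6. Rpl36al had 26.0 and 25.1 CPM with IL-4 and 20.1 and 21.9 CPM in CTRL (log2 fold change 0.29, adjusted p = 0.11). Rps18, at the head of the small subunit, had 282 and 300.3 CPM with IL-4 and 249 and 234 CPM in CTRL (0.27, adjusted p = 0.14).

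LPS for 6 h changed 5 of 83 members, 4 higher and 1 lower, against 52.1% of all genes (22.8% higher and 29.3% lower). The median log2 fold change was 0.03 for members and -0.10 for all genes. Changes were within 0.25 for 75 members (90.4%), against 25.04% of all genes. At a mean log2 CPM of 5 or more these were 73 of 77 members, against 29.4% of all.

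Of the 4 that rose, 3 belong to the 7 related genes and 1 to the core. Rpl7l1, a nucleolar relative of Rpl7, had 167 and 159 CPM with LPS and 125 and 117 CPM in CTRL (log2 fold change 0.43, SE 0.09, adjusted p = 0.011). Both LPS libraries lay above both CTRL libraries, while Rpl7 itself had 402 and 405 CPM with LPS and 406 and 431 CPM in CTRL. Rpl36al, a relative of Rpl36a with no unique stretches, had 25.8 and 28.4 CPM with LPS and 20.1 and 21.9 CPM in CTRL (0.37, SE 0.10, adjusted p = 0.027). Rpl27 of the large subunit had 60.4 and 57.9 CPM with LPS and 48.8 and 43.4 CPM in CTRL (0.36, SE 0.11, adjusted p = 0.036). Rps4l, annotated as a transcribed processed pseudogene, had 7.31 and 6.67 CPM with LPS and 5.57 and 4.34 CPM in CTRL (0.50, SE 0.17, adjusted p = 0.048). Its parent Rps4x, on the X chromosome, had 461 and 450.0 CPM with LPS and 532 and 530.1 CPM in CTRL (-0.22, adjusted p = 0.087).

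The member that fell was Rpl3, with 319 and 286 CPM with LPS and 416 and 366 CPM in CTRL (log2 fold change -0.37, SE 0.11, adjusted p = 0.035). Both LPS libraries lay below both CTRL libraries. Over all members both LPS libraries lay above both CTRL libraries for 13, against 32.8% of all genes, and below for 12, against 41.7%. Of the 6 fits that each left out a library, Rpl7l1 was called in 5, Rpl36al in 2 and Rpl27, Rps4l and Rpl3 in 1 each. Without CTRL replicate 1, 17 members were higher and 0 lower, against 25.8 and 25.6% of all genes. With library totals alone as scaling, 0 members were higher and 62 lower, against 12.9 and 51.2% of all genes, and the fold changes of Rpl7l1, Rpl36al and Rpl27 turned negative. That scaling put the median of all genes at -0.55 and that of members at -0.43. A change of scaling shifts all genes nearly alike, so the gap of 0.12 between these medians could hardly differ from that under TMM. With single libraries left out the gap under TMM ran from -0.0009 without CTRL replicate 2 to 0.25 without CTRL replicate 1. Of all calls 20.1% were higher under library totals alone, against 43.8% under TMM.

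**Figure D5:**
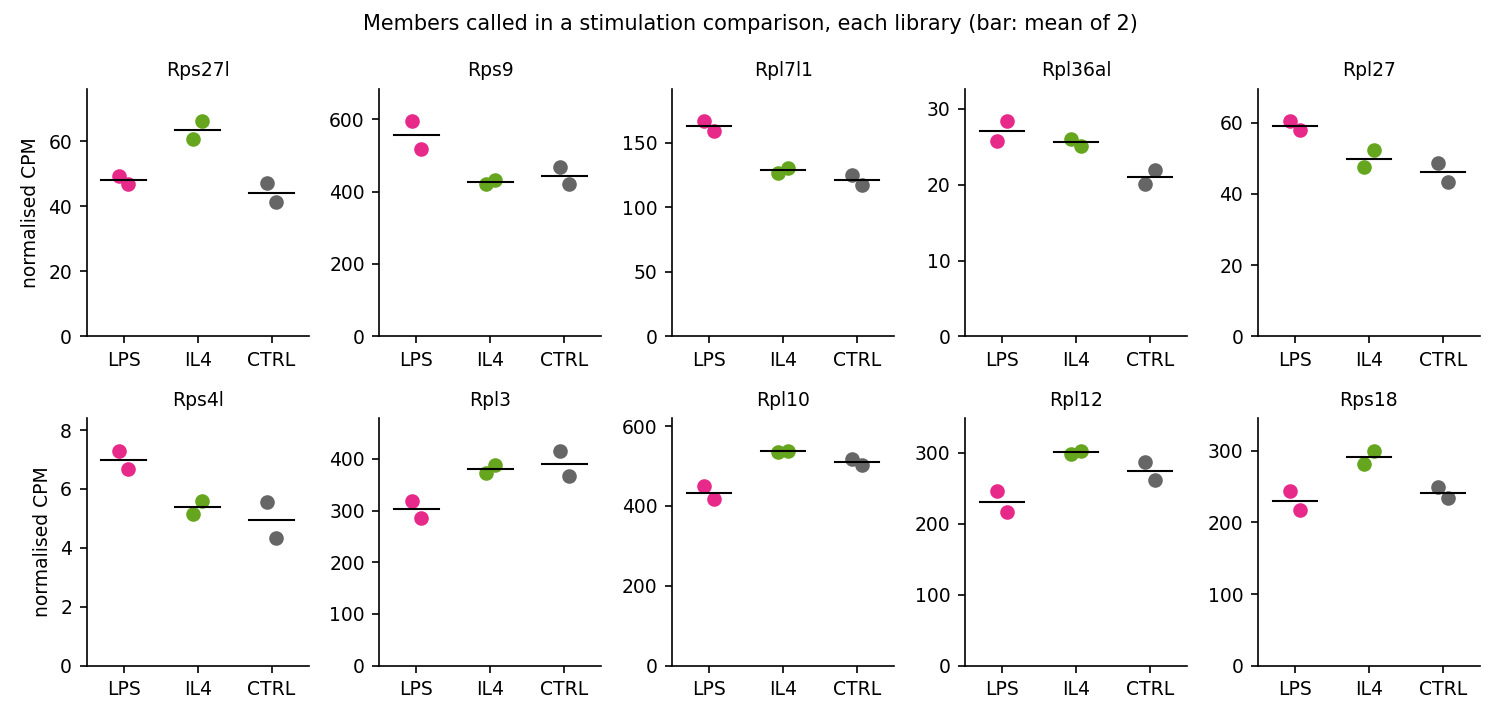
Normalised CPM in each library of the stimulation set for the 10 members called in any of its comparisons, with bars for the mean of 2 libraries. Rps9 and Rpl7l1 are highest with LPS, at 516 to 594 and 159 to 167 CPM, Rps27l is highest with IL-4, at 60.6 to 66.1 CPM, and Rpl3 and Rpl10 are lowest with LPS.

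LPS and IL-4 set against each other gave 2 members higher and 5 lower with LPS, against 53.1% of all genes (23.4% higher and 29.7% lower). Both LPS libraries lay above both IL-4 libraries for 15 members, against 35.6% of all genes, and below for 28, against 44.8%. Rps9, a small-subunit protein, had 594 and 516 CPM with LPS and 419.8 and 431 CPM with IL-4 (log2 fold change 0.38, SE 0.11, adjusted p = 0.032). Rpl7l1 had 167 and 159 CPM with LPS and 127 and 131 CPM with IL-4 (0.34, SE 0.09, adjusted p = 0.026). These 2 rose, with no overlap between groups. Rps27l had 49.3 and 46.8 CPM with LPS and 60.6 and 66.1 CPM with IL-4 (-0.40, SE 0.11, adjusted p = 0.026). Rpl12, of the stalk base, had 246 and 217 CPM with LPS and 298 and 303 CPM with IL-4 (-0.38, SE 0.11, adjusted p = 0.027). Rps18 had 243 and 217 CPM with LPS and 282 and 300.3 CPM with IL-4 (-0.34, SE 0.10, adjusted p = 0.037).

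Rpl3 fell to 319 and 286 CPM with LPS, against 374 and 389 CPM with IL-4 (-0.33, SE 0.11, adjusted p = 0.049). Rpl10, a late-joining protein of the large subunit, had 450.3 and 416 CPM with LPS and 535 and 539 CPM with IL-4 (-0.31, SE 0.09, adjusted p = 0.033). In all 5 that fell the groups did not overlap. Of the 6 fits that each left out a library, Rps9 was called in 3 and each of the other 6 members in 2, those without a CTRL library. Under RLE size factors the 2 rises were still called and 0 falls were, against 25.2 and 26.3% of all genes, and under library totals alone 0 members were higher and 69 lower, against 13.5 and 52.5% of all genes, with Rps9 and Rpl7l1 turned negative. Among the printed start sites, those of Rps9, Rps18, Rpl12 and Rps27l hold a marked pyrimidine run and those of Rpl7l1 and Rpl10 do not.

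Of the members with known roles outside translation, 5 are given here. Rpl5 and Rpl11, which with the 5S rRNA bind and inhibit Mdm2, had log2 fold changes of -0.03 and 0.02 with LPS and 0.14 and 0.07 with IL-4. Rpl13a, which in human monocytes leaves the ribosome after interferon-γ to block translation of set mRNAs, had 384 and 349 CPM with LPS, 425 and 432 CPM with IL-4 and 434 and 390.0 CPM in CTRL. Rpsa, also described as a laminin receptor, had 402 and 357 CPM with LPS, 399 and 404 CPM with IL-4 and 445 and 397 CPM in CTRL. Rps27a, made as a fusion with ubiquitin, had 317 and 311 CPM with LPS, 316 and 321 CPM with IL-4 and 292 and 315 CPM in CTRL. None of these 5 was called in a stimulation comparison.

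Rpl22l1, a relative of Rpl22, had 14.6 and 13.6 CPM with LPS and 13.1 and 14.0 CPM in CTRL, and its groups overlapped. Rpl22 had 115 and 109 CPM with LPS and 132 and 123 CPM in CTRL, and was not called. Of the ribosomal proteins that the naming rule does not reach, Rack1, a scaffold on the small subunit, averaged 625 ± 62.8 CPM with LPS and 614 ± 49.3 CPM in CTRL (SD, n = 2 each). Fau encodes a ubiquitin-like protein fused to a ribosomal protein. By edgeR with TMM neither Rack1 nor Fau was called in any of the 6 comparisons.

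Other genes of the translation machinery were followed as lists. With IL-4, 18 of 37 ribosome assembly factors rose and 0 fell, against 9.66 and 10.5% of all genes, with a median log2 fold change of 0.48. Gar1, of the particles that make pseudouridine in rRNA, averaged 14.4 ± 0.07 CPM with IL-4 and 6.91 ± 0.04 CPM in CTRL (SD, n = 2 each; log2 fold change 1.05, SE 0.11, adjusted p = 0.0021 by edgeR). Rrp12, known in yeast as an export factor of ribosomal subunits, averaged 25.6 ± 0.76 CPM with IL-4 and 13.8 ± 0.07 CPM in CTRL (0.89, SE 0.09, adjusted p = 0.0021). Myc, a transcription factor that drives ribosome production, averaged 38.2 ± 0.53 CPM with IL-4 and 24.2 ± 2.05 CPM in CTRL (0.66, adjusted p = 0.015). Of 34 initiation factors 2 rose, Eif2b2 and Eif4e, and of 8 elongation factors 1 rose, Eif5a. Markers of dendritic cells rose too, 2 of 3 tested, Flt3 and Zbtb46, with summed levels of 6.34 to 6.90 CPM with IL-4 and 0.80 to 0.91 CPM in CTRL, and macrophage markers fell for 3 of 8, with sums of 26680 to 28810 CPM with IL-4 against 34450 to 38316 CPM in CTRL. The part of either was not tested.

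With LPS 16 of 34 initiation factors rose and 1 fell, against 22.8 and 29.3% of all genes, with a median of 0.45. Under library totals alone 3 rose and 7 fell, against 12.9 and 51.2% of all genes, and the median was -0.005. Eif6, which keeps the large subunit from joining too early, averaged 184 ± 25.5 CPM with LPS and 62.6 ± 8.29 CPM in CTRL (SD, n = 2 each; log2 fold change 1.55, SE 0.15, adjusted p = 0.00047). Eif4e, the cap-binding protein, averaged 134 ± 4.81 CPM with LPS and 64.0 ± 2.83 CPM in CTRL (1.07, SE 0.10, adjusted p = 0.00042). Eef2k, the kinase that slows elongation, fell to 2.84 ± 0.62 CPM with LPS, against 15.5 ± 1.58 CPM in CTRL (-2.45, SE 0.18, adjusted p = 0.00016). Larp1, the protein that binds TOP mRNAs, rose to 444 ± 2.83 CPM with LPS, against 128 ± 3.30 CPM in CTRL (1.80, SE 0.10, adjusted p = 7.3e-05). These single-gene directions were the same under library totals alone.

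Of 37 assembly factors 9 rose and 4 fell with LPS, against 22.8 and 29.3% of all genes, and under library totals alone 0 rose and 16 fell, against 12.9 and 51.2%. Polr1b, a subunit of RNA polymerase I, fell to 9.59 ± 0.76 CPM with LPS, against 17.4 ± 1.19 CPM in CTRL (-0.86, SE 0.11, adjusted p = 0.0014). Of 8 other mRNAs with a TOP start, 3 rose (Btf3, Hnrnpa1 and Vim) and 1 fell (Nap1l1) with LPS, and under library totals alone 0 rose and 4 fell. Of 13 regulators of ribosomal protein synthesis 5 rose and 4 fell, and under library totals alone 3 rose and 7 fell. LPS also raised 2 of 3 neutrophil markers tested, S100a8 and Camp, with sums of 13.1 to 17.8 CPM with LPS against 2.84 to 3.19 CPM in CTRL and Ly6g at 0 in both. Proliferation markers fell for 5 of 8, with sums of 293 to 313 CPM with LPS and 310.0 to 354 CPM in CTRL. Dendritic cell markers, higher with IL-4, were higher with LPS too, with sums of 4.64 to 5.22 CPM against 0.80 to 0.91 CPM in CTRL. The part of these markers was not tested.

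Set against IL-4 under TMM, LPS left 14 of 37 assembly factors lower and 1 higher, against 29.7 and 23.4% of all genes. Their median was -0.34. These values depend on the scaling: RLE factors moved the median of all genes by 0.08 and library totals by -0.48. Gar1 averaged 5.98 ± 0.29 CPM with LPS and 14.4 ± 0.07 CPM with IL-4 (-1.26, SE 0.11, adjusted p = 0.00028), and Myc averaged 13.9 ± 1.66 CPM with LPS and 38.2 ± 0.53 CPM with IL-4 (-1.46, SE 0.13, adjusted p = 0.00026). In the tolerant set 0 of 37 assembly factors were called without against with glutamine by edgeR, against 4.7% of all genes. At an unadjusted p under 0.05 stood 0 of them, and DESeq2 called 0. The replicate block called 2 higher, Rrp12 and Polr1a, against 8.68% of all genes. Of 34 initiation factors 1 rose, against 2.3% of all genes, and 4 with the block, against 8.68%. Called in both fits was Eif1, which selects the start codon, with 207 ± 11.4 CPM without glutamine and 160 ± 11.2 CPM with it (SD, n = 4 each; 0.37, SE 0.08, adjusted p = 0.020). Of 8 elongation factors and their regulators 1 fell, Eef2k, against 2.4% of all genes. Eef2k had 13.7 ± 1.77 CPM without glutamine and 19.8 ± 2.02 CPM with it (-0.54, SE 0.12, adjusted p = 0.025).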

How the data were processed

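RNA of mouse bone marrow-derived macrophages was sequenced in 18 libraries, 12 of the endotoxin-tolerant set and 6 of the stimulation set. The authors deposited raw read counts per gene, which are whole numbers with no normalization. STAR, HTSeq and mm10 are named in the submitters' processing notes, and TruSeq stranded libraries in the labels' protocols. Versions, annotation, the strand setting of the counting and its handling of multiply mapped reads are not stated in the sources at hand. Stimulation replicates are 2 a group, tolerant replicates 4 a group.

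Each table was fitted separately over all its genes with edgeR 4.0.16 in R 4.3.3 (filterByExpr, TMM, robust quasi-likelihood F test, Benjamini-Hochberg adjustment over all genes tested, threshold 0.05), which left 12492 genes in the tolerant and 12506 in the stimulation set. All members were tested. Standard errors were taken as the fold change over the root of F. Normalised CPM used TMM-adjusted totals. Alternatives were RLE size factors, library totals alone, no filter, DESeq2 1.42.0, pseudogene rows added to their parents, a replicate block, each library left out in turn, and, in the tolerant set, replicates 1 and 2 or 3 and 4 alone. The fitting steps were tested on simulated data. These were drawn independently for each library, without the split between replicates seen in the tolerant set.

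Libraries with the same replicate number deviated together in the tolerant set, and the numbers were used as a block. The correlation of deviations from group means was 0.501 to 0.823 over all 12 same-number pairs. For the tolerant members and lists, blocked values stand beside a result where they change a call or a count. Other-number pairs ran from -0.838 to 0.836, and the labels do not say what a number marks. Within replicates 1 and 2, and within 3 and 4, other-number pairs correlated positively too, and some lay above same-number pairs. The data thus set replicates 1 and 2 apart from 3 and 4, but do not show a pairing by number within them.

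The members and gene lists were chosen with earlier results of these data known. Genes were named by a rule: in each comparison the 4 called members with the largest rise and the 4 with the largest fall (with under 2 called, the 2 with the smallest p), the 3 highest and 3 lowest members of each table, a set of members with known roles or relatives, and the 2 genes of each list with the smallest p. Rpl5, Rps26, Rpl41, Rpl35 and Rps18 in the IL-4 comparison, the members called only with a block or in part of the replicates, the highest and lowest members per kb, and single marker genes, Hnrnpa1, Nap1l1 and Polr1a in the tolerant set were named after their values were seen.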

Additional observations from a re-analysis of the deposited data

Results flagged for a closer look

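In the tolerant set 6 single libraries stood apart from the other 3 of their group by Dixon's test at its 95% critical value. These came from 117 groups of 4 libraries over 38 members and their share of counts, where chance gives about 5%. With AKG, replicate 3 was low for Rplp0 (531 CPM, the others 595 to 604) and for Rps15a (184 CPM, the others 197 to 198). Without glutamine, replicate 4 was low for Rps2 (251 CPM, the others 299.6 to 306). With glutamine, replicate 1 was low for Rpl36a (60.3 CPM, the others 69.5 to 70.7) and for Rps15a (171 CPM, the others 190 to 192), and replicate 3 was high for Rps27rt (1.08 CPM, the others 0.841 to 0.877).

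The change without against with glutamine differed between replicates 3 and 4 and replicates 1 and 2 for Rpl41, by -0.61 on the log2 scale (adjusted p = 0.026 by edgeR's interaction test), and for Rps26, by -0.50 (adjusted p = 0.023). Both were above 0 in replicates 1 and 2 and below 0 in replicates 3 and 4. These were 2 of 85 members, against a similar share of all genes tested, 2.45%.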

How the results depend on the processing

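Counts of called members are given as higher and lower. In the tolerant set RLE factors, library totals alone, no filter and added pseudogene rows left 0 and 0 in all 3 comparisons, as did each left-out library. Without against with glutamine, DESeq2 gave 2 higher, the replicate block 4 and 1, replicates 1 and 2 alone 29 higher and replicates 3 and 4 alone 1 lower. For AKG against no glutamine the block gave 1 lower and replicates 1 and 2 alone 8 lower. For AKG against glutamine replicates 1 and 2 alone gave 2 and 1. In the stimulation set same-number pairs ran from -0.662 to 0.501, so the numbers do not pair the libraries. There the block gave 0 higher for IL-4 against CTRL, 2 and 0 for LPS against CTRL, and 2 and 2 for LPS against IL-4. With the IL-4 numbers crossed, an alternative added after seeing the data, these were 3 and 0, 6 and 5, and 5 and 11.

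For LPS against CTRL, RLE factors and DESeq2 gave 0 lower and a member median of 0.13, no filter gave 2 higher, and library totals alone gave 0 and 62 with a median of -0.43. Under library totals the log2 fold change was -0.10 for Rpl27, -0.081 for Rpl36al, -0.028 for Rpl7l1 and -0.43 for Rack1. For LPS against IL-4, RLE factors and DESeq2 gave 0 lower, no filter 1 higher, and library totals alone 0 and 69 with a median of -0.50. Rpl7l1 then stood at -0.14, Rps9 at -0.10 and Btf3 at -0.010. RLE factors moved the median of all genes by 0.10 and library totals by -0.45 for LPS against CTRL. Leaving out a library gave 0 to 2 members higher and medians of -0.020 to 0.20 for IL-4 against CTRL. It gave 0 to 17 higher, 0 to 1 lower and medians of -0.040 to 0.20 for LPS against CTRL, and 0 to 4 higher and 0 to 6 lower for LPS against IL-4. A group then holds a lone library, which is assumed to vary like the others. Beyond the scaling itself and the fewer libraries, the cause of these shifts was not tested. With 3 residual degrees of freedom in the stimulation set, changes of the members' size lie near the limit of detection.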
